A study of Mus musculus with 12 samples.

Results

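Polysome association in 4EGI-1 treated leukaemia cells was described from 6 arrays of a series of 12: 3 arrays of polysomal RNA and 3 of cytoplasmic RNA from the same treated cells. The measure was the log2 value in polysomal RNA minus that in cytoplasmic RNA, for every gene and noncoding RNA that passed a filter on dim probe sets. A positive value is written below as higher in polysomes and a negative one as lower in polysomes. Of 19937 named genes, 13180 passed the filter, and 12526 of these are protein-coding in RefSeq.

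The cells came from a leukaemia of the T cell lineage, T cell acute lymphoblastic leukaemia (T-ALL), in mice of C57BL6 strain, and are labelled clone #483. Treated cells received 100 µM 4EGI-1 for 2 h. The other 6 arrays came from control cells, which the labels call untreated and the protocol describes as given DMSO, the solvent. All groups had 3 arrays, all cells met cycloheximide before lysis, and all derive from 1 clone, so the results describe that clone. The labels call the reference RNA cytoplasmic, whereas the titles call it total and the series text has it extracted from cells with Trizol, so it may include nuclear RNA. Polysomal RNA was instead column-purified from gradient fractions, pooled and precipitated with lithium chloride. The series text speaks of biological replicates. Where cultures were not separate, the p-values measure only the spread between these arrays.

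4EGI-1 is a small molecule that blocks the contact between eIF4E, the protein that binds the cap of an mRNA, and eIF4G, the scaffold that brings the ribosome to it. An mRNA that is initiated often carries several ribosomes and sediments with polysomes, while an idle mRNA stays in lighter fractions. RNAs that are not translated, such as small nucleolar RNAs and the RNA of RNase P, are not normally polysomal. Ferritin mRNAs and the mRNAs of ribosomal proteins are the textbook cases of transcripts held out of polysomes, the first through an iron-responsive element bound by IRP proteins, the second through a terminal oligopyrimidine (TOP) tract at the cap.

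All 12 T cell marker genes on the array passed the filter, with medians over the treated arrays of 6.58 to 12.3 on the log2 scale, Cd3e and Rag1 among them. Of the B cell markers 2 of 5 passed and of the myeloid markers 2 of 7, with medians of at most 6.78. Both erythroid markers passed, with medians of at most 6.83. In the stromal and endothelial list 4 of 6 passed, with a highest median of 8.41. In RNA from many cells, fewer cells of a type and less RNA per cell cannot be told apart. Arrays of polysomal RNA from treated cells correlated at 0.996 across genes and those of cytoplasmic RNA at 0.987 to 0.995. The standard deviation of the median gene over 3 arrays was 0.0761 in the former and 0.121 in the latter, so the reference fraction carried most of the spread.

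The sequences of microRNA genes are shown first, because loci that share a mature product or a seed can be set side by side. They are the RefSeq mature forms of assembly GRCm38.p6, 5′ to 3′, with the seed (bases 2 to 8) in capitals. The first 3 belong to the miR-181 family, abundant in thymocytes, and are shown because 4 of its 5 tested loci were lower in polysomes. The fourth is shared by 3 loci that were all lower, and the last is from the single microRNA gene that was higher.
miR-181a-5p (Mir181a-2, chr2:38852741-38852763, plus strand): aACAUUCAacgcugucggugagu
miR-181b-5p (Mir181b-1, chr1:137966650-137966673, plus strand; Mir181b-2, chr2:38853845-38853868, plus strand): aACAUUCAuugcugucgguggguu
miR-181d-5p (Mir181d, chr8:84178759-84178781, minus strand): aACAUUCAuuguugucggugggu
miR-680 (Mir680-1, chr6:129691541-129691561, plus strand; Mir680-2, chrX:144297790-144297810, plus strand; Mir680-3, chr12:35194849-35194869, minus strand): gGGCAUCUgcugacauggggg
miR-191-5p (Mir191, chr9:108568325-108568347, plus strand): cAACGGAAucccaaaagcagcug

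Across all genes, 1260 were higher in polysomes of treated cells, which is 9.56% of those tested, and 942 were lower, which is 7.15% (limma, Benjamini-Hochberg adjusted p under 0.05). Most of these differences were small. Only 149 of the higher genes and 196 of the lower ones differed by at least 1.5-fold, 1.13% and 1.49% of the genes tested. The quartiles of all genes lay at -0.14 and 0.13 on the log2 scale. The counts depended on single arrays: without polysomal array 1, 549 genes were higher and 497 lower, without polysomal array 3, 676 and 552, and without cytoplasmic array 1 the lower count was 623. No gene called in either direction was called in the opposite one when an array was left out.

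Noncoding RNAs had the lowest values. Of 522 tested, 111 were lower in polysomes, or 21.3%, and 8 were higher, or 1.53%. Their median log2 difference was -0.14, against -0.01 for all genes tested. The order among classes was steep: small nucleolar and Cajal body RNAs had a median of -0.87 and 32 of 42 lower, microRNA genes -0.19 and 25 of 102 lower, and long noncoding RNAs -0.10 and 46 of 351 lower. Protein-coding genes had 1243 higher and 821 lower of 12526. The 85 pseudogenes, with 7 higher and 5 lower, lay close to the background. Whether small RNA was absent from polysomes or lost in the column and lithium chloride steps, which the reference RNA did not pass through, cannot be told apart.

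**Figure D1:**
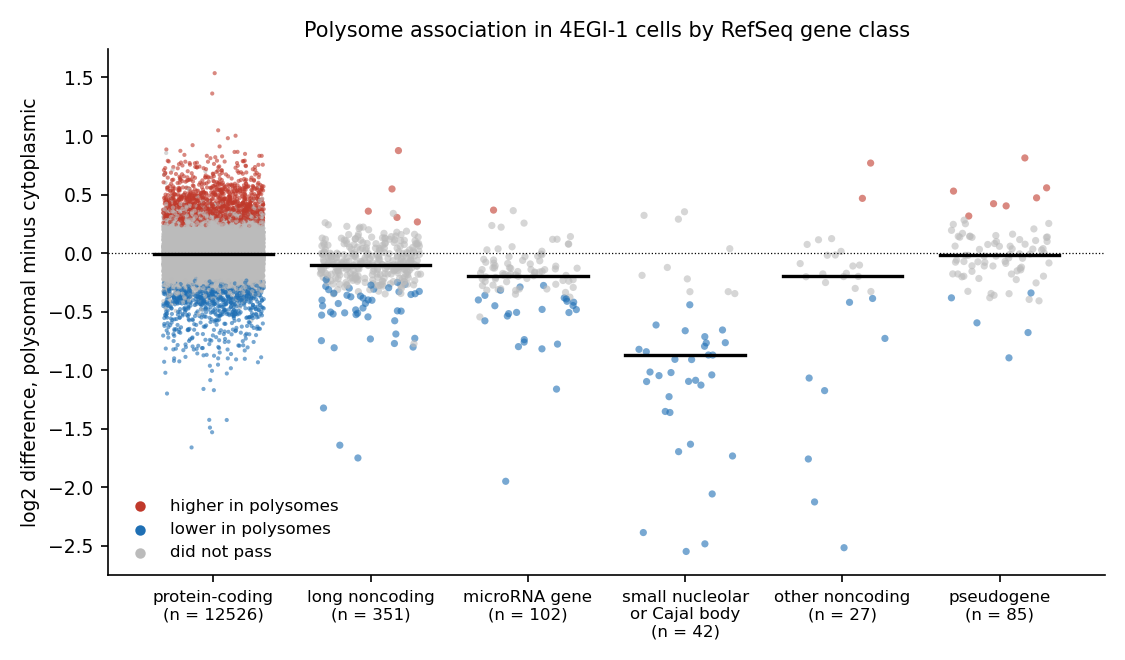
Log2 difference, polysomal minus cytoplasmic RNA in 4EGI-1 cells (vertical axis), of each tested gene by RefSeq class (horizontal axis, n genes). Each point is 1 gene, red where higher and blue where lower at a limma adjusted p under 0.05, grey where not, and the black bar is the class median; the small nucleolar class lies lowest, with a median of -0.87.

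Among small structural RNAs, Rpph1, the RNA subunit of RNase P that trims tRNA precursors, had the largest difference. Its log2 values were 8.75, 8.79 and 8.82 in polysomal RNA and 11.41, 11.00 and 11.50 in cytoplasmic RNA. The 2 groups were far apart, and the difference was -2.52 ± 0.11 (standard error, n = 3 against 3, limma adjusted p = 3.0e-09), or 5.72-fold lower in polysomes. Rn7sk, the 7SK RNA that holds the elongation factor P-TEFb inactive in the nucleus, read 10.03, 10.19 and 10.48 in polysomal RNA against 12.24, 12.37 and 12.47, a difference of -2.13. Rny3, a Y RNA, differed by -1.76 and Rmrp, the RNA of RNase MRP, by -1.17. Of the 8 tested small structural RNAs all had negative values and 5 were called lower, the fifth being Rprl2 at -0.39. Rnu12, the U12 spliceosomal RNA, at -0.25, Terc, the telomerase RNA, at -0.20 and Rprl1 at -0.09 did not pass.

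The gene list held 54 small nucleolar and Cajal body RNAs, of which 41 passed the filter. Of the 41 tested, 33 were lower in polysomes and none was higher, with a median of -0.91 and values from -2.55 to 0.35. The small nucleolar RNAs among them mostly guide the methylation (SNORD, C/D box) or pseudouridylation (SNORA, H/ACA box) of ribosomal RNA in the nucleolus. Snord16a read 7.17, 7.22 and 6.94 in polysomal RNA and 9.75, 9.55 and 9.48 in cytoplasmic RNA, with no overlap, and differed by -2.48 ± 0.10 (limma adjusted p = 2.7e-09). Snord87 differed by -2.39, Snord57 by -2.06, Snora3 by -1.73 and Snord95 by -1.70. Snord82 had the lowest value of all, -2.55, but also the widest spread, with polysomal arrays at 6.71, 7.10 and 6.25 and cytoplasmic ones at 9.33, 9.82 and 8.55. The smallest called differences were in Scarna13, a Cajal body RNA, at -0.44 and Snord22 at -0.61. The count was between 31 and 35 whichever treated array was left out, and 17 under a filter at the 60th percentile, where fewer of these dim probe sets were tested.

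Because most small nucleolar RNAs lie inside introns of other genes, probe sets of coding genes could in part read them. Of 261 tested coding genes whose RefSeq span overlaps such a gene, 31 were lower in polysomes, or 11.9%, and 20 higher. Among the other 12265 coding genes 6.44% were lower. Rpl12, Rplp2, Tpt1, Eef2, Odc1 and Sars, named below, are among the overlapping genes, and whether their probe sets read the small RNA was not tested.

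The list of microRNA genes held 300, of which 104 passed the filter. Of the 104 tested, 26 were lower in polysomes, 1 was higher and 90 had values below 0. An array probe set of this kind reads any RNA from the locus, precursor or host transcript included, so the values do not measure the mature microRNA. Mir181b-1 read 5.06, 4.64 and 4.72 in polysomal RNA and 6.69, 7.04 and 6.54 in cytoplasmic RNA, a difference of -1.95 ± 0.15 (limma adjusted p = 1.7e-06). Mir181b-2, which gives the same mature sequence from another chromosome, differed by -1.16, Mir181d by -0.54 and Mir181a-2 by -0.52. Mir181c, with the same seed, differed by -0.14 and did not pass. The 3 miR-680 loci differed by -0.80 (Mir680-1), -0.82 (Mir680-2) and -0.74 (Mir680-3). Mir680-1 also had polysomal means below the filter, 5.93 in treated and 5.92 in control cells. Mir191 differed by 0.37.

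The microRNA calls were less firm than those of small nucleolar RNAs. The count of 26 fell to 12 without cytoplasmic array 1, 17 without cytoplasmic array 2, and 14, 15 and 16 without polysomal arrays 1, 2 and 3. Mir181b-1, Mir181b-2 and Mir181a-2 passed in each of these 6 fits. Mir181d lost the call in 3 of them (adjusted p up to 0.117), Mir680-1 in the fit without polysomal array 1 (0.0849), Mir680-2 in 3, Mir680-3 in 5 and Mir191 in 4 (0.141).

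A further list of long noncoding RNAs was drawn up around nuclear retention and chromatin roles. Of its 8 tested members 4 were lower and none higher. Whether each member, Norad included, is nuclear in these cells was not tested. Malat1, a long RNA of nuclear speckles, read 10.15, 10.22 and 10.32 in polysomal RNA against 11.68, 11.83 and 11.14, a difference of -1.32 ± 0.19 (limma adjusted p = 0.00051). Mir17hg, the host of the miR-17-92 cluster, differed by -0.50, Norad by -0.45 and Pvt1 by -0.43. Airn at -0.29, Firre at -0.28, Snhg11 at 0.03 and Tug1 at 0.06 did not pass. Without cytoplasmic array 1 or polysomal array 1 only 2 of the 8 passed. Beyond the list, 4632427E13Rik differed by -1.75 and Gm24463 by -1.64. Overlap with small nucleolar RNA genes was looked up for coding genes only, so whether these 2 probe sets read such RNAs was not tested.

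Gas5, the noncoding host of several small nucleolar RNAs and itself a TOP transcript, did not pass, at -0.21 (adjusted p = 0.136). Of the 7 host transcripts Dancr, at -0.80, and Snhg15, at -0.34, were lower, and Snhg15 lost the call in each of the 6 fits that left out 1 treated array. The polysomal means of Dancr, 5.59 in treated and 5.77 in control cells, lay below the filter. A few noncoding RNAs were higher in polysomes. BC002059 was highest, with 8.43, 8.15 and 8.23 in polysomal RNA and 7.28, 7.46 and 7.44 in cytoplasmic RNA, a difference of 0.88. Platr25 followed at 0.77, I730030J21Rik at 0.55, Slfn10-ps at 0.47, 1810062O18Rik at 0.36 and 2810002D19Rik at 0.30. Platr25, I730030J21Rik and 2810002D19Rik lost the call in 4 or 5 of the 6 fits without 1 treated array.

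**Figure D2:**
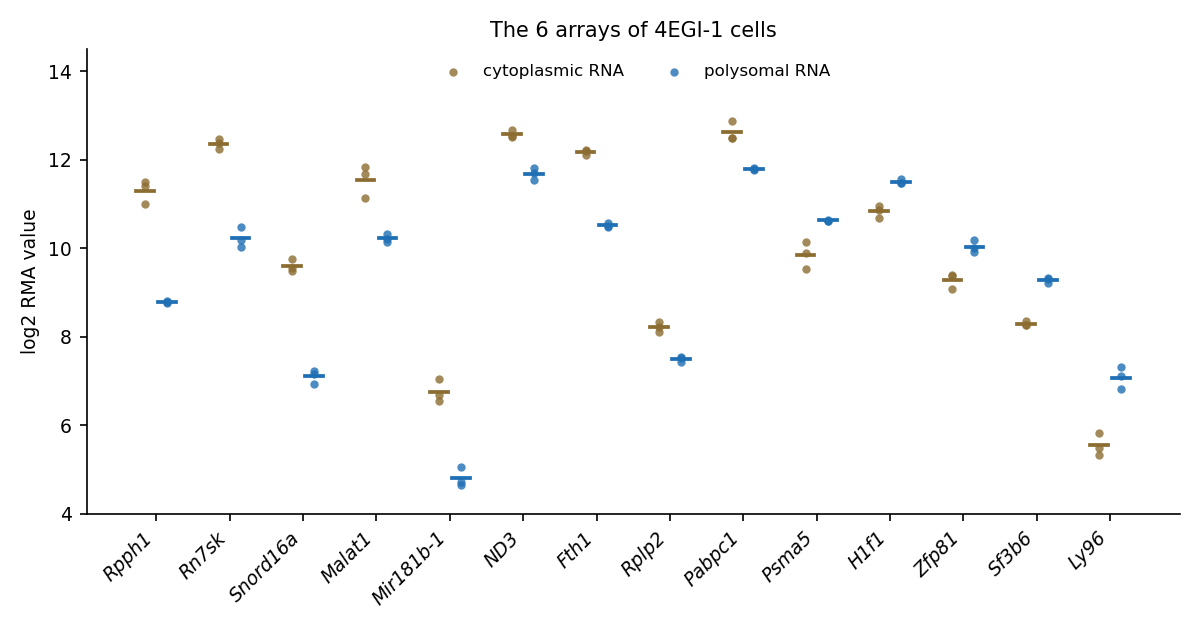
Log2 RMA value (vertical axis) on each of the 6 arrays of 4EGI-1 cells for 14 members (horizontal axis), in cytoplasmic RNA (brown) and polysomal RNA (blue); points are arrays and bars are means of 3. No gene shown has overlapping groups, and the log2 difference runs from -2.52 in Rpph1 to 1.54 in Ly96; levels cannot be compared between genes.

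Both mitochondrially encoded transcripts that were tested were lower in polysomes. Mitochondrial ribosomes translate them inside the organelle, apart from cytosolic polysomes. ND3, a subunit of complex I, read 11.69, 11.81 and 11.54 in polysomal RNA against 12.55, 12.52 and 12.67, a difference of -0.90 ± 0.08 (limma adjusted p = 1.0e-05). These values are of the brighter of its 2 probe sets, and the call was lost when their mean was used. COX2, a subunit of cytochrome oxidase, differed by -0.45, and lost the call in 4 of the 6 fits without 1 treated array.

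Among coding genes, Fth1 was lowest in polysomes. It encodes the ferritin heavy chain, which oxidises and stores iron. Its arrays read 10.48, 10.58 and 10.52 in polysomal RNA and 12.12, 12.23 and 12.21 in cytoplasmic RNA, an almost constant gap of -1.66 ± 0.08 (limma adjusted p = 1.5e-08), or 3.16-fold lower. Ftl1, the ferritin light chain, read 5.90, 6.04 and 5.91 against 6.98, 6.49 and 7.04, a difference of -0.89. Of the 14 tested genes of ferritin and iron regulation 6 were lower and none higher, with a median of -0.19. The others called were Pcbp2, an RNA-binding protein that also delivers iron, at -0.48, the mitochondrial iron importers Slc25a28 at -0.38 and Slc25a37 at -0.26, and Iscu, the scaffold of iron-sulfur cluster assembly, at -0.37. Tfrc, the transferrin receptor, at -0.02, Ireb2, an iron regulatory protein, at -0.14 and Hmox1, haem oxygenase, at 0.06 did not pass.

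Ribosomal protein mRNAs were lower more often than the background. Of 56 tested, 16 were lower, 3 were higher and 47 had values below 0, with a median of -0.13. Rpl12 had the lowest value, at -1.53, and overlaps Snora65. Of those that overlap no small nucleolar RNA in RefSeq, Rpl41 read 12.14, 12.18 and 12.21 in polysomal RNA against 12.78, 12.79 and 13.03, a difference of -0.69 ± 0.09 (limma adjusted p = 0.00021), and Rps28 read 10.57, 10.73 and 10.56 against 11.32, 11.32 and 11.58, a difference of -0.78. The acidic stalk proteins Rplp2, Rplp1 and Rplp0 differed by -0.73, -0.52 and -0.49, and Rpl30 by -0.92. Rps15 at 0.26, Rpl14 at 0.27 and Rpl7l1 at 0.51 were higher. Ribosomal protein genes have many processed copies, so a probe set may also read those. Between 12 and 17 members were lower whichever treated array was left out.

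Other TOP mRNAs gave 5 lower and 1 higher of 22. Pabpc1, the cytoplasmic poly(A)-binding protein, read 11.81, 11.79 and 11.77 against 12.48, 12.50 and 12.88, a difference of -0.83. Eif3f, a subunit of initiation factor eIF3, differed by -0.69, Tpt1 by -0.49, Eif4b, the helper of the eIF4A helicase, by -0.35 and Eef1a1, which brings aminoacyl-tRNA to the ribosome, by -0.26. Eef1a1 lost the call in 5 of the 6 fits without 1 treated array. Most TOP mRNAs thus showed no called difference: Npm1 at -0.15, Naca at 0.05 and Eif3e at -0.04 are examples. The higher one was Eef1d, at 0.30, which lost the call in 3 of those fits. In control cells 12.2% of all genes tested were lower and 16.7% higher, and of these 22 TOP mRNAs 9 were lower and 2 higher. The difference between treated and control cells passed in 3, all higher in treated cells, and in 1 to 3 with any 1 array left out.

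The mRNAs of the factors that 4EGI-1 acts on, and of their regulators, mostly did not pass. Of 17 genes of the cap-binding complex and its regulators 2 were lower and 1 was higher. Eif4e read 11.53, 11.55 and 11.46 in polysomal RNA against 11.46, 11.60 and 11.48, with overlapping arrays and a difference of -0.00 ± 0.08 (limma adjusted p = 0.996). Eif4a1, the helicase, differed by 0.08 and did not pass. Eif4ebp2, a repressor that binds eIF4E, differed by -0.70, and Pdcd4, an inhibitor of eIF4A, by 0.39. Eif4ebp2 lost the call in 3 and Pdcd4 in 4 of the 6 fits without 1 treated array. Of 29 other initiation factors 4 were higher, Mcts1 at 0.61, Eif2b3 at 0.47, Denr at 0.40 and Eif3i at 0.28. Without polysomal array 3 only 2 of these passed.

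Among mRNAs listed in the literature as sensitive to eIF4E, 4 of 26 were lower, 2 were higher and the median was 0.01. Odc1, the rate-limiting enzyme of polyamine synthesis, read 11.60, 11.73 and 11.62 in polysomal RNA against 12.04, 12.12 and 12.29, a difference of -0.50 ± 0.09 (limma adjusted p = 0.0018). Mta1, a chromatin remodeller, differed by -0.65, Cdk4 by -0.38 and the kinase Pim2 by -0.32. The antiapoptotic Bcl2 differed by 0.33 and Birc2 by 0.30. Myc read 12.00, 11.94 and 12.02 against 11.87, 11.83 and 12.20, with a difference of 0.02 ± 0.13 (adjusted p = 0.938), so that the arrays overlapped. Mcl1 at -0.08, Ccnd3 at -0.12, Vegfa at -0.05 and Hif1a at 0.04 did not pass. The lower count was 2 without cytoplasmic array 3, polysomal array 1 or polysomal array 3. Cdk4 lost the call in 4 and Bcl2 in 2 of the 6 fits without 1 treated array. Over all genes tested, control cells had larger shares called than treated cells, 16.7% higher and 12.2% lower. In this list they gave 9 higher and 2 lower, with a median of 0.08 and Odc1 at -0.13. The difference between treated and control cells passed in no member (limma adjusted p = 0.158 for Odc1). With any 1 array left out at most 2 members were lower in treated cells by that test. Under other settings up to 8 were lower and up to 2 higher.

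NOTCH1 drives most T-ALL. Notch1 read 9.81, 9.75 and 9.84 in polysomal RNA and 10.11, 10.06 and 10.67 in cytoplasmic RNA, a difference of -0.48 ± 0.14 (limma adjusted p = 0.033). The groups did not overlap, but the spread lay in cytoplasmic array 3, and the call was lost in 4 of the 6 fits without 1 treated array (adjusted p up to 0.106). Of 23 NOTCH1 pathway and MYC genes 4 were lower, the others being Notch3 at -0.43, Mxi1 at -0.40 and Psen2 at -0.28. Il7r, the interleukin-7 receptor, was the 1 higher member, at 0.42, and lost the call in 3 of those fits, as Notch3 did in 5. The lower count was 2 without cytoplasmic array 1 or 3 and 1 without any of the polysomal arrays. In control cells 12.2% of all genes tested were lower and 16.7% higher. This list gave 5 lower and 2 higher there, with Notch1 at -1.01 and Notch3 at -0.53. The difference between treated and control cells passed in no member (limma adjusted p = 0.228 for Notch1). With any 1 array left out at most 2 members were higher in treated cells by that test. Under other settings up to 6 were higher and up to 2 lower.

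Transcripts known for control by upstream reading frames split in direction. Ifrd1, at 0.56, Ppp1r15a, the GADD34 phosphatase subunit, at 0.34, and Atf4, at 0.27, were higher, Odc1 was lower, and the other 14 did not pass. Atf4, the central factor of the integrated stress response, read 10.71, 10.51 and 10.62 in polysomal RNA and 10.34, 10.27 and 10.43 in cytoplasmic RNA (adjusted p = 0.035), and lost the call in 4 of the 6 fits without 1 treated array. Ddit3, the CHOP factor, differed by 0.01. Of 37 genes induced by ATF4, none was higher and 3 were lower, Chac1 at -0.47, Aldh1l2 at -0.34 and Pck2 at -0.33, each of which lost the call in 5 of those 6 fits.

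On the higher side, mRNAs of the proteasome, which degrades ubiquitin-tagged proteins, were called more often than the background. Of 43 tested subunits and assembly factors 15 were higher, none was lower and the median was 0.22. Psma5, of the catalytic core, read 10.64, 10.62 and 10.62 in polysomal RNA against 10.14, 9.90 and 9.53, a difference of 0.77 ± 0.14 (limma adjusted p = 0.0029). Psmb3 differed by 0.69, Psmb4 by 0.67, Psmd6, of the regulatory cap, by 0.65 and Psma6 by 0.51. The ATPase subunits Psmc1, Psmc2, Psmc4 and Psmc5 were higher by 0.27 to 0.38. The count was 7 without polysomal array 1 and 9 without polysomal array 2.

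Histone genes gave 11 higher and 1 lower of 31, with a median of 0.32. Replication-dependent histone mRNAs end in a stem-loop in place of a poly(A) tail. The linker histone H1f1 read 11.56, 11.47 and 11.49 in polysomal RNA against 10.87, 10.69 and 10.96, a difference of 0.66 ± 0.09 (limma adjusted p = 0.00047). H4c3 differed by 0.84, H2ac4 by 0.77, H2bc4 by 0.72, H1f5 by 0.71 and H2bc3 by 0.67. The lower one was the replacement variant H2az2, at -0.40. Core histone genes are near-identical copies, so their values are not independent. The higher count was 7 without polysomal array 1, 6 without polysomal array 3 and 18 without cytoplasmic array 3, and H4c3 lost the call without polysomal array 3.

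Genes of mitosis gave 10 higher and none lower of 33, with a median of 0.19. Nusap1, which bundles spindle microtubules, read 11.46, 11.31 and 11.39 against 10.80, 10.80 and 10.71, a difference of 0.62 ± 0.08 (limma adjusted p = 0.00025). Hmmr differed by 0.48, the kinase Cdk1 by 0.39 and Cdca8, of the chromosomal passenger complex, by 0.38. The count was 5 without polysomal array 1, and 6 without cytoplasmic array 2, polysomal array 2 or polysomal array 3.

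Zinc finger genes with Zfp symbols, many of them transcription repressors of the KRAB type, gave 53 higher and 7 lower of 271, with a median of 0.12. Zfp81 read 10.18, 9.91 and 10.01 against 9.40, 9.37 and 9.08, a difference of 0.75 ± 0.12 (limma adjusted p = 0.00093). Zfp36 and Zfp36l2, which bind AU-rich elements and promote mRNA decay, carry Zfp symbols but are of another family, and differed by 0.66 and 0.53. Zfp317 differed by 0.57. The higher count was 34 without cytoplasmic array 2 or 3, 22 without polysomal array 1 and 26 without polysomal array 3.

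Mitochondrial ribosomal proteins gave 17 higher and 2 lower of 78, and respiratory chain subunits encoded in the nucleus 13 higher and 6 lower of 80. Mrpl22 read 9.01, 8.86 and 8.95 against 8.33, 8.03 and 7.88, a difference of 0.86. Mrps18c differed by 0.67 and Mrpl46 by 0.54, while Mrps24 differed by -0.56. In the respiratory chain Ndufs4, of complex I, differed by 0.68, Cox7a2 by 0.58 and Cox7b by 0.54. Cox8a, at -0.57, Atp5g1, at -0.54, and Uqcr10, at -0.52, were lower, so that both lists held members of either sign. Without polysomal arrays 1, 2 and 3 the higher counts were 6, 10 and 10 for the mitochondrial ribosome and 7, 6 and 6 for the respiratory chain, and without cytoplasmic array 2 the first was 11.

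Spliceosome proteins split, with 11 higher and 4 lower of 45. Sf3b6, a small subunit of the U2 particle, read 9.32, 9.31 and 9.21 against 8.27, 8.27 and 8.36, a difference of 0.98 ± 0.08 (limma adjusted p = 4.4e-06). Cdc5l differed by 0.72, Sf3b4 by 0.62 and Snrnp70 by 0.56. Snrnp200, a large RNA helicase, read 10.14, 10.07 and 10.08 against 10.78, 10.66 and 10.83, a difference of -0.66, and Prpf8, the largest protein of the core, differed by -0.37, a call lost in 4 of the 6 fits without 1 treated array. Lsm8 at -0.39 and Lsm4 at -0.35, both small, were also lower. The higher count was 7 without any 1 of the polysomal arrays. The lower count was 2 without cytoplasmic array 3 or polysomal array 3 and 1 without polysomal array 1.

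Of 39 tested genes for very large proteins, 10 were lower and 3 higher, with a median of -0.11. Dync1h1, the motor subunit of dynein, read 9.62, 9.45 and 9.67 in polysomal RNA against 10.32, 10.11 and 10.57, a difference of -0.75 ± 0.12 (limma adjusted p = 0.00099). Flna, which crosslinks actin, differed by -0.50, Birc6 by -0.49 and Mdn1, an ATPase of ribosome assembly, by -0.40. Kmt2d, a histone methyltransferase, at 0.56, Atm, a DNA damage kinase, at 0.41 and Akap9 at 0.30 were higher. The lower count was 6 without any 1 of the polysomal arrays.

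**Figure D3:**
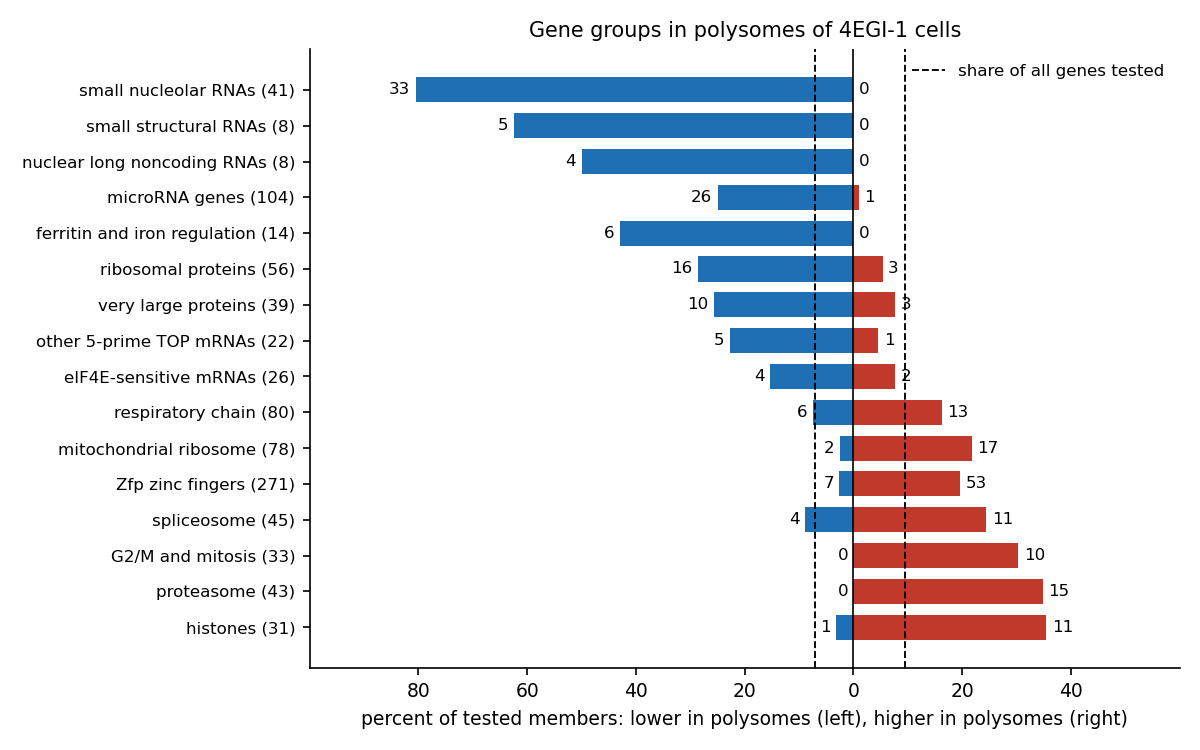
Percent of tested members lower (blue, to the left) and higher (red, to the right) in polysomes of 4EGI-1 cells for 16 gene groups, with the number tested in parentheses and the number called beside each bar. Dashed lines mark the shares of all genes tested, 7.15% lower and 9.56% higher. Small nucleolar, small structural and nuclear long noncoding RNAs extend furthest to the left, followed by the iron genes. MicroRNA genes, ribosomal proteins and very large proteins come next, and histones and the proteasome extend furthest to the right.

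Among all genes tested 9.56% were higher and 7.15% lower, and several of the groups that follow lay near these shares. Cholesterol synthesis genes had 9.52% called each way, glycolysis genes 7.14% each way and T cell identity genes 11.5% higher. Cytosolic tRNA synthetases gave 1 lower of 22, Sars at -0.32, and none higher. Endoplasmic reticulum chaperones gave 2 higher of 36, Calr at 0.33 and Creld2 at 0.32, the latter lost in 5 of the 6 fits without 1 treated array. T cell identity genes gave 3 higher of 26, Cd3d at 0.39, Thy1 at 0.35 and Rag2 at 0.32, and no more than 2 without any 1 of the treated arrays. Of 32 immediate early and short-lived mRNAs only Zfp36 and Zfp36l2 passed. In the BCL2 family Bcl2 was higher and Bad, at -0.28, lower, of 17, and without 1 treated array Bcl2 lost the call in 2 and Bad in 5 of the 6 fits. Glycolysis gave Tpi1 higher at 0.47 and Hk2 lower at -0.29, of 14. The arrays of Hk2 overlapped between fractions, and it lost the call in 5 of those 6 fits (adjusted p up to 0.189). Cholesterol synthesis genes gave 2 each way of 21, with Insig1 at -0.54, and cytosolic heat shock proteins 3 higher of 23, with Dnajb4 at 0.50. Ribosome biogenesis gave 8 higher and 3 lower of 43, with Nop16 at 0.62 and Rrs1 at 0.55, and 2 higher without polysomal array 1 or 3. SR proteins and hnRNPs gave 2 higher and 4 lower of 34, with Hnrnpc at 0.70 and Luc7l at -0.81, and the lower count was 1 without cytoplasmic array 3, polysomal array 1 or polysomal array 3 and 2 without cytoplasmic array 1 or polysomal array 2.

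DNA replication genes gave 7 higher and 3 lower of 43, with Rpa3, of the single-strand binding protein, at 0.47, the clamp loader subunit Rfc3 at 0.39 and the transcription factor E2f1 at -0.53. The higher count was 4 without cytoplasmic array 2, 2 without polysomal array 1 and 3 without polysomal array 2 or 3. Thymosins and small actin regulators gave 4 higher and 2 lower of 18, with Dstn at 0.37, and 2 higher without cytoplasmic array 2 or any 1 of the polysomal arrays. Elongation and termination factors gave 1 each way of 11, or 9.09%, near the shares of all genes tested. Of 10 polyamine genes only Odc1 passed.

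Single coding genes with large differences came from no one list. Ly96, a co-receptor of lipopolysaccharide signalling, was the highest, at 7.11, 7.31 and 6.82 in polysomal RNA and 5.32, 5.82 and 5.48 in cytoplasmic RNA, a difference of 1.54 ± 0.17 (limma adjusted p = 7.9e-05) or 2.90-fold. Its cytoplasmic means, 5.54 in treated and 5.51 in control cells, lay below the filter, so it passed only through its polysomal arrays. Atxn1 followed at 1.36, with cytoplasmic arrays spread from 7.83 to 9.02, then the corepressor subunit Sap30 at 1.05 and Fahd1 at 1.00. On the lower side came Tomm5, of the mitochondrial import pore, at -1.49, Slc10a1, a bile acid transporter, at -1.43, the lysosomal protein Cd68 at -1.42 and Adipor1 at -1.20. Tmsb10, a small actin-binding thymosin, read 9.46, 9.68 and 9.53 against 10.14, 10.27 and 10.84, a difference of -0.86.

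The same measure in control cells, from the other 6 arrays, served as the background of polysome association without 4EGI-1. The calls of both share the filter and 1 estimate of each gene's spread over 12 arrays. Overlaps of these calls are therefore not between independent sets. With the 6 treated arrays fitted alone, 1186 genes were higher and 853 lower in treated cells. In control cells 2205 genes were higher in polysomes, 16.7% of those tested, and 1614 lower, 12.2%. The range of values was narrower in treated cells: the standard deviation across genes was 0.247 against 0.325, and 2.66% of genes lay beyond 1.5-fold in either direction against 7.66%. Across the 13180 genes, which are not independent replicates, the log2 differences of treated and control cells had a Pearson r of 0.72. Of the genes higher in treated cells 962, or 76.3%, were also higher in control cells, and these were 43.6% of the control's. Of the genes lower in treated cells 545, or 57.9%, were also lower in control cells, 33.8% of the control's. Opposite calls were made for 8 and 2 genes.

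The groups with the lowest values in treated cells were also low in control cells. Small nucleolar RNAs gave 32 lower of 41 in control cells with a median of -0.86, and Rpph1 differed by -2.43, Rn7sk by -2.38 and Snord16a by -2.15. Ribosomal proteins gave 14 lower and 7 higher in control cells, with a median of -0.06. Proteasome genes gave 17 higher and 1 lower. Histone genes gave 20 higher and 4 lower of 31 in control cells, with a median of 0.45. Zinc finger genes gave 79 higher and 22 lower of 271, with a median of 0.06. The test of the difference itself passed in no ribosomal protein or microRNA gene, in 1 proteasome gene, Psmd1, and in 1 small nucleolar RNA, Snora73b. Without cytoplasmic treated array 3, however, 3 microRNA genes and 2 small nucleolar RNAs were lower by this test, and without cytoplasmic control array 2, 2 microRNA genes. At most 1 ribosomal protein gene was lower with any 1 array left out. With array weights 15 ribosomal protein, 12 microRNA, 10 proteasome and 7 small nucleolar RNA genes were lower, and 2, 3, 2 and 5 were higher. Among histone and zinc finger genes 2 and 3 passed, all higher in treated cells. With any 1 array left out up to 3 and 5 were lower, and under other settings up to 6 and 36.

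That test, polysome association in treated minus control cells in the same limma fit, passed for 305 genes with a higher value in treated cells, 2.31% of those tested, and for 80 with a lower value, 0.607%. With array weights, an alternative added after seeing the data, the counts were 1147 higher and 1691 lower. Of the 305, 252 were lower in polysomes of control cells and were not called in treated cells, 32 were lower in both, 13 were higher in treated cells alone and 8 had opposite calls. Of the 80, 49 were higher in control cells and not called in treated cells. Leaving out polysomal array 1 of either group or polysomal array 3 of treated cells gave 179 or 180 positive calls, and polysomal control array 2 gave 194. The negative calls ranged from 19, without cytoplasmic treated array 1, to 259, without cytoplasmic control array 2, with 211 without cytoplasmic treated array 3. They numbered 32 without cytoplasmic or polysomal control array 1, 22 and 31 without polysomal control arrays 2 and 3, and 28, 40 and 21 without polysomal treated arrays 1, 2 and 3.

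**Figure D4:**
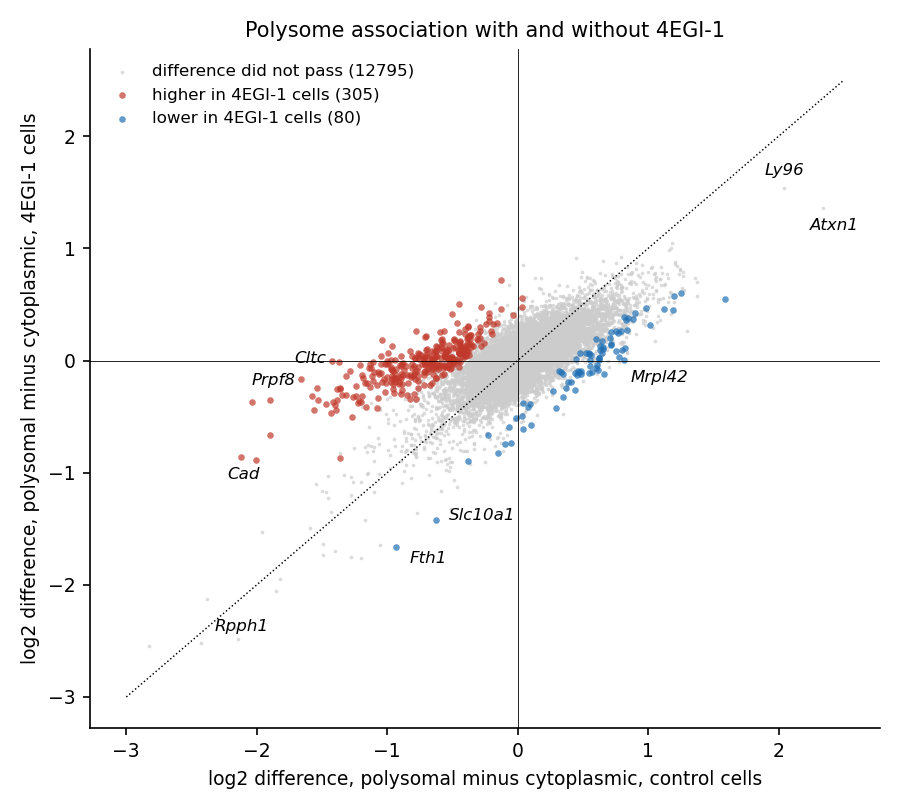
Log2 difference, polysomal minus cytoplasmic, in control cells (horizontal axis) and 4EGI-1 cells (vertical axis) for the 13180 genes tested. Red and blue points are the 305 genes whose association was higher and the 80 whose association was lower in 4EGI-1 cells by the limma test of the difference, and the dotted line marks equal values; most red points lie at negative values on the control axis and near 0 on the other.

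Genes for very large proteins were well represented among the positive differences. Of the 39 very large proteins 24 were lower in polysomes of control cells, with a median of -0.36, against the 10 and -0.11 above, and 11 passed the test of the difference, all of them higher in treated cells. That count was 8 to 13 with any 1 array left out. Prpf8 had the largest difference of the coding genes. In treated cells it read 11.38, 11.19 and 11.42 in polysomal RNA and 11.62, 11.63 and 11.86 in cytoplasmic RNA, and in control cells its means were 9.61 ± 0.17 and 11.65 ± 0.14 (SD, n = 3). Polysome association was thus -0.37 in treated and -2.04 in control cells, a difference of 1.67 ± 0.15 (limma adjusted p = 5.1e-05). The cytoplasmic means were close, and the polysomal ones were not.

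Cltc, the clathrin heavy chain, had the same form: -0.17 in treated and -1.66 in control cells, a difference of 1.49 ± 0.12 (limma adjusted p = 3.4e-05), with polysomal means of 11.74 ± 0.02 and 10.21 ± 0.11. Snrnp200 differed by 1.23 between treatments, Glg1, a large Golgi glycoprotein, by 1.35, Mybbp1a, a nucleolar protein, by 1.42, and Lrpprc, which stabilises mitochondrial mRNA, by 1.17. Cad, the enzyme of the first steps of pyrimidine synthesis, was -0.86 in treated and -2.12 in control cells, and both values were called lower. Fasn, the fatty acid synthase, was -0.89 in treated cells and lower still in control cells. Its difference of 1.11 lost its call in 5 of the 12 fits without 1 array. The histone gene H2bc8 differed by 1.55, where the cytoplasmic mean was 7.67 in treated and 8.78 in control cells.

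Several complexes also had members among the positive differences. Of 28 nuclear pore genes 9 had a higher association in treated cells and none a lower one, Nup205, Nup155 and Nup107 among them, and 12 were lower in polysomes of control cells against 3 in treated ones. Of 45 spliceosome genes 9 were higher by this test and 1 lower, and of 43 DNA replication genes 8 were higher, including Pole, Mcm7 and Lig1. Of 33 genes of mitosis 9 were higher, among them Top2a, Bub1b and Cenpe, and the group had 7 higher and 10 lower in polysomes of control cells. Of 22 tRNA synthetase genes 4 were higher, Eprs, Lars, Tars and Iars. Eef2, the elongation factor that moves the ribosome along, was -0.26 in treated and -0.89 in control cells, a difference of 0.63 ± 0.13 (limma adjusted p = 0.013), and overlaps Snord37. With any 1 array left out the counts were 8 to 11 for the nuclear pore, 9 to 11 for the spliceosome, 6 to 10 for replication and 6 to 11 for mitosis. For the synthetases they were 2 to 6, with 2 without cytoplasmic treated array 1, polysomal control array 2 or polysomal treated array 1. Lengths of the encoded proteins were not analysed here.

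**Figure D5:**
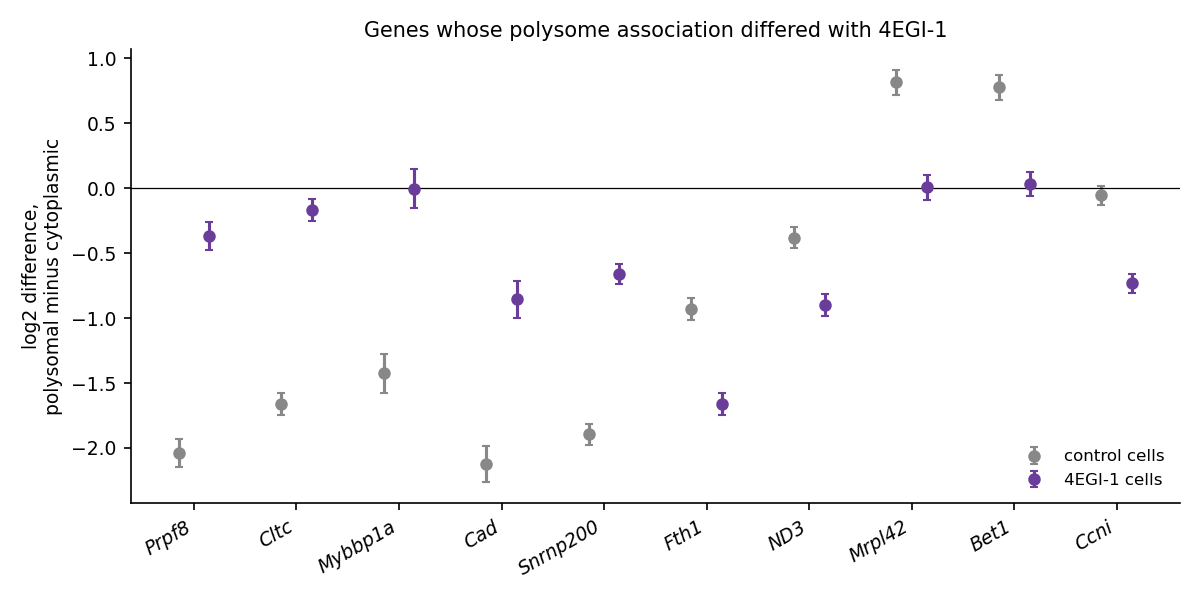
Log2 difference, polysomal minus cytoplasmic RNA (vertical axis), in control cells (grey) and 4EGI-1 cells (purple) for 10 genes that passed the limma test of the difference; points are estimates from 3 arrays per fraction and bars are standard errors. The first 5 genes lie closer to 0 in 4EGI-1 cells, Fth1, ND3 and Ccni lie lower there, and Mrpl42 and Bet1 are near 0 there and above it in control cells.

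Among the negative differences, Fth1 was at -1.66 in treated against -0.93 in control cells, a difference of -0.73 ± 0.12 (limma adjusted p = 0.0027), and it passed in each of the 12 fits without 1 array. Its cytoplasmic means were 12.18 ± 0.06 and 12.28 ± 0.16 in treated and control cells, and its polysomal means 10.52 ± 0.05 and 11.35 ± 0.04 (SD, n = 3). Ftl1 showed -0.89 and -0.56, and the difference did not pass (adjusted p = 0.526). Of the 14 genes of ferritin and iron regulation 9 were lower in polysomes of control cells, with a median of -0.40. Fth1 was the only one lower in treated cells by the test of the difference, and 3 were higher. That higher count was 1 to 3 with any 1 array left out. Ccni, cyclin I, was -0.73 in treated and -0.05 in control cells, with polysomal means of 10.14 ± 0.07 and 10.86 ± 0.04 and a difference of -0.68 (adjusted p = 0.0016). ND3 differed by -0.52, a call that was lost in 7 of the 12 fits without 1 array.

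Mrpl42, a protein of the mitochondrial ribosome, was 0.01 in treated and 0.81 in control cells, a difference of -0.81 ± 0.14 (limma adjusted p = 0.0039), with polysomal means of 9.23 ± 0.11 and 10.41 ± 0.08. Mrpl33 differed by -0.78, which passed in only 2 of the 12 fits, and Bet1, a SNARE protein of transport to the Golgi, by -0.74. Of 78 mitochondrial ribosome genes 40 were higher in polysomes of control cells against 17 in treated ones, and of 80 respiratory chain genes 34 against 13. The test of the difference passed in 4 genes of each list, all lower in treated cells. For the mitochondrial ribosome 1 passed without cytoplasmic control array 1, without cytoplasmic treated array 1 or 2, without polysomal control array 1 or 2 or without any of the polysomal treated arrays, and 2 without polysomal control array 3. For the respiratory chain the count was 2 in 8 of the 12 fits, 7 without cytoplasmic control array 2 and 8 without cytoplasmic treated array 3. With array weights 30 and 38 genes of the 2 lists were lower. Slc10a1 differed by -0.80, where its cytoplasmic mean was 7.74 in treated and 6.56 in control cells, and without polysomal treated array 1 the adjusted p was 0.0503. I730030J21Rik differed by -1.04 and lost the call in 7 of the 12 fits.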

How the data were processed

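RNA of 12 samples was measured on a single-colour whole-transcript array. The authors deposited log2 values of 34760 probe sets, computed with RMA per the submitters' processing notes. Its version, and whether the 12 arrays were processed jointly, is not given in the sources used here. Arrays share a scale, so total polysomal RNA is not measured, and 3 arrays a group limit the precision.

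Gene symbols came from the platform annotation, which can be old: 21640 had 1 symbol, 1321 several and 11799 none. Symbols were updated to RefSeq GRCm38.p6, which held 19855 of 19937. Genes with several probe sets (954) took the brightest. A filter at the 40th percentile of probe set means (log2 6.0) removed 6757 genes. It used the mean over 12 arrays, so a gene below it in 1 fraction could pass through the other. For such genes the filter favours the direction of the brighter fraction.

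Group means were fitted over 12 arrays by limma 3.58.1 (lmFit, eBayes; R 4.3.3). The Benjamini-Hochberg adjustment ran over 13180 genes, with a threshold of 0.05. Errors are standard errors of that fit unless given as SD. Scripts were tested on simulated data. Other settings were no filter or other filters, quantile normalization or median centring, array weights, a trend with a robust prior, the mean of probe sets, the 6 arrays of one treatment alone, a replicate block and leaving out each array.

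The members, lists and tests were chosen with earlier results of these data known. The rule for names took the 12 coding genes and 6 noncoding RNAs (small nucleolar RNAs counted apart) with the largest called difference each way (arrays not overlapping, a mean of at least 7 in the higher fraction), up to 3 members with the smallest p per list, 5 genes each way by the test of the difference, and Myc, Mcl1, Notch1, Atf4, Ddit3, Odc1, Eif4e, Ccnd3, Fth1, Malat1 and Gas5. Other members given with values were chosen after their values were seen. MicroRNA sequences were matched for 92 of 104 genes. One gene is not reported here.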

Additional observations from a re-analysis of the deposited data

Results flagged for a closer look

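The 20 results below were singled out because polysome association differed between 4EGI-1 and control cells by limma's test of the difference (adjusted p under 0.05 over 13180 genes). Groups of 3 arrays were not tested for outlying arrays. Differences are on the log2 scale, treated minus control.

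Higher in treated cells were Prpf8 (1.67), H2bc8 (1.55), Cltc (1.49), Mybbp1a (1.42), Glg1 (1.35), Cad (1.27), Snrnp200 (1.23), Lrpprc (1.17), Fasn (1.11), Hk2 (0.66), Eef2 (0.63) and Hmmr (0.44). For all but Hmmr the association was lower than 0 in control cells and closer to 0 in treated cells. Hmmr was 0.03 in control and 0.48 in treated cells, and lost its call in 8 of the 12 fits without 1 array and with a replicate block (adjusted p = 0.072). Hk2, hexokinase 2, was -0.95 in control and -0.29 in treated cells.

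Lower in treated cells were I730030J21Rik (-1.04), Mrpl42 (-0.81), Slc10a1 (-0.80), Mrpl33 (-0.78), Bet1 (-0.74), Fth1 (-0.73), Ccni (-0.68) and ND3 (-0.52). ND3 also lost its call with a replicate block (adjusted p = 0.063) and when the mean of its probe sets was used.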

How the results depend on the processing

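Of the 20 named genes that passed the test of the difference, 13 passed in each fit that left out 1 array and 16 under each other setting. Of the 140 named genes called in 4EGI-1 cells, 101 passed in each of the 6 fits without 1 treated array and 116 under each other setting. No named gene that was called changed sign. Array weights gave 2300 genes higher and 2372 lower in treated cells, and 1147 higher and 1691 lower in the difference, so that the share of positive calls fell from 79.2% to 40.4%; the cause was not tested. Without a filter 19937 genes were tested, 28 were lower in the difference, and in treated cells 5 genes of mitosis and 7 of the respiratory chain were higher and 6 for very large proteins lower.

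Leaving out 1 array gave 549 to 1063 genes higher and 497 to 902 lower in treated cells, 1649 to 2240 and 1146 to 1925 in control cells, and 179 to 411 higher and 19 to 259 lower in the difference. Same-numbered polysomal and cytoplasmic arrays deviated together weakly (r of 0.036, 0.228 and 0.019 in treated cells, 0.020, 0.141 and 0.125 in control cells). The series text has both RNAs from the same cells but ties no number to them, and treated cytoplasmic array 3 correlated better with polysomal array 1 (0.143), so the arrays were not paired. With a replicate block 1264 genes were higher and 951 lower in treated cells, 2195 and 1666 in control cells, and 278 and 79 in the difference. The comparison over protein lengths was not run. The cytoplasmic arrays vary more than the polysomal ones, and the pooled spread does not follow this. Values near the filter, such as those of many small RNAs, are limited by signal over background.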
